A study of Canis lupus familiaris with 5 samples.

Results

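The genes described here are those of antioxidant defence and detoxification: superoxide dismutases, glutathione peroxidases, peroxiredoxins, the thioredoxin and glutaredoxin family, glutathione transferases, metallothioneins, selenoproteins, aldehyde dehydrogenases, aldo-keto reductases and quinone reductases. They were taken by symbol, as every probe set that the platform annotation pairs with exactly 1 gene of these families. This gave 59 probe sets of 38 genes among 4601 probe sets other than array controls. A probe set is the group of short probes on an oligonucleotide array that together report 1 transcript. CAT, GSR, HMOX1, HMOX2, NQO1, PRDX5, TXN2 and TXNRD1 were not analysed here.

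RNA of dog heart muscle, labelled only as canine myocardium, was hybridised to 5 arrays whose probe sets are annotated with human genes. The 3 failing arrays (1a, 1b and 2a) came from dogs with congestive heart failure, and on each of them RNA from 3 dogs had been pooled. Of the 2 control arrays, 2a also carried a pool of 3 dogs, and the labels do not describe the RNA on 1a. No strain, age, cause of failure or treatment is given, and nothing states whether failing 1a and 1b are separate pools, so p-values measure the spread between arrays, which may be technical.

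Reactive oxygen species arise in heart muscle mainly from the respiratory chain and from oxidase enzymes. Superoxide dismutases convert superoxide to hydrogen peroxide, which catalase, glutathione peroxidases and peroxiredoxins then reduce. Glutathione and thioredoxin supply the electrons for glutathione peroxidases and peroxiredoxins. Glutathione transferases couple glutathione to reactive compounds, and aldehyde dehydrogenases clear aldehydes formed when lipids are oxidised. Metallothioneins are small cysteine-rich proteins that bind zinc and copper and also scavenge oxidants.

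Setting failing against control myocardium asks which transcripts of these systems differ in heart failure. The clearest differences were at 2 probe sets, one for the microsomal glutathione transferase gene MGST3 and one for the thioredoxin-binding protein gene TXNIP, whose intensities in failing myocardium were 0.491-fold and 0.494-fold those in control. Both were lower on every failing array, and neither passed the adjusted threshold (limma with Benjamini-Hochberg adjustment, adjusted p = 0.305 for both). The 5 glutathione peroxidase and 4 peroxiredoxin probe sets tested had log2 differences above 0, with a median of 0.38 in each family. Of the 4, PRDX2 was tested only because it was high in failing myocardium, so its direction followed from the brightness filter. Of all tested probe sets 56.1% lay above 0, with a median of 0.11. The groups overlapped for 3 of the 5 and 2 of the 4, and not every direction held under other treatments of the data. Metallothioneins showed no common direction. No member passed at an adjusted p under 0.05. Over all 2301 probe sets bright enough to be tested, 0.0869% passed, which is 2 probe sets, one of CST3 and one without a symbol.

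Of the 59 members, 32 probe sets of 26 genes were bright enough to be tested, meaning that their mean log2 intensity, with values under 20 raised to 20, was at or above the median of all probe sets (an intensity of 140.1). Just inside that limit stood MGST2 (mean log2 7.42) and TXNL4A (7.70), and just outside it MT1E (6.89) and a TXN probe set (6.83). At an unadjusted p under 0.05, 1 tested member was higher and 2 were lower, against 6.13% higher and 3.35% lower of all tested probe sets. The groups did not overlap for 6 members that were higher on all failing arrays, where 18.3% of tested probe sets were, and for 5 that were lower, where 11.5% were. PRDX2 was the 1 member higher at that p and also 1 of the 6, and it was tested only because it was high in failing myocardium. Among all 59 members with no filter, 9 (15.3%) were higher and 8 (13.6%) lower without overlap, against 13.1% and 13.4% of all 4601 probe sets. The members' counts were thus near the background of the array. That background depends on scaling, with 12.1% higher and 16.9% lower when arrays share a 75th percentile, and 13.5% and 14.9% after quantile normalization, where the members numbered 4 and 5, and 5 and 5. Their median log2 difference, failing minus control, was 0.21, against 0.11 for all tested probe sets, and 20 of the 32 lay above 0 (62.5%, against 56.1% of all), or 17 under either other scaling.

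**Figure D1:**
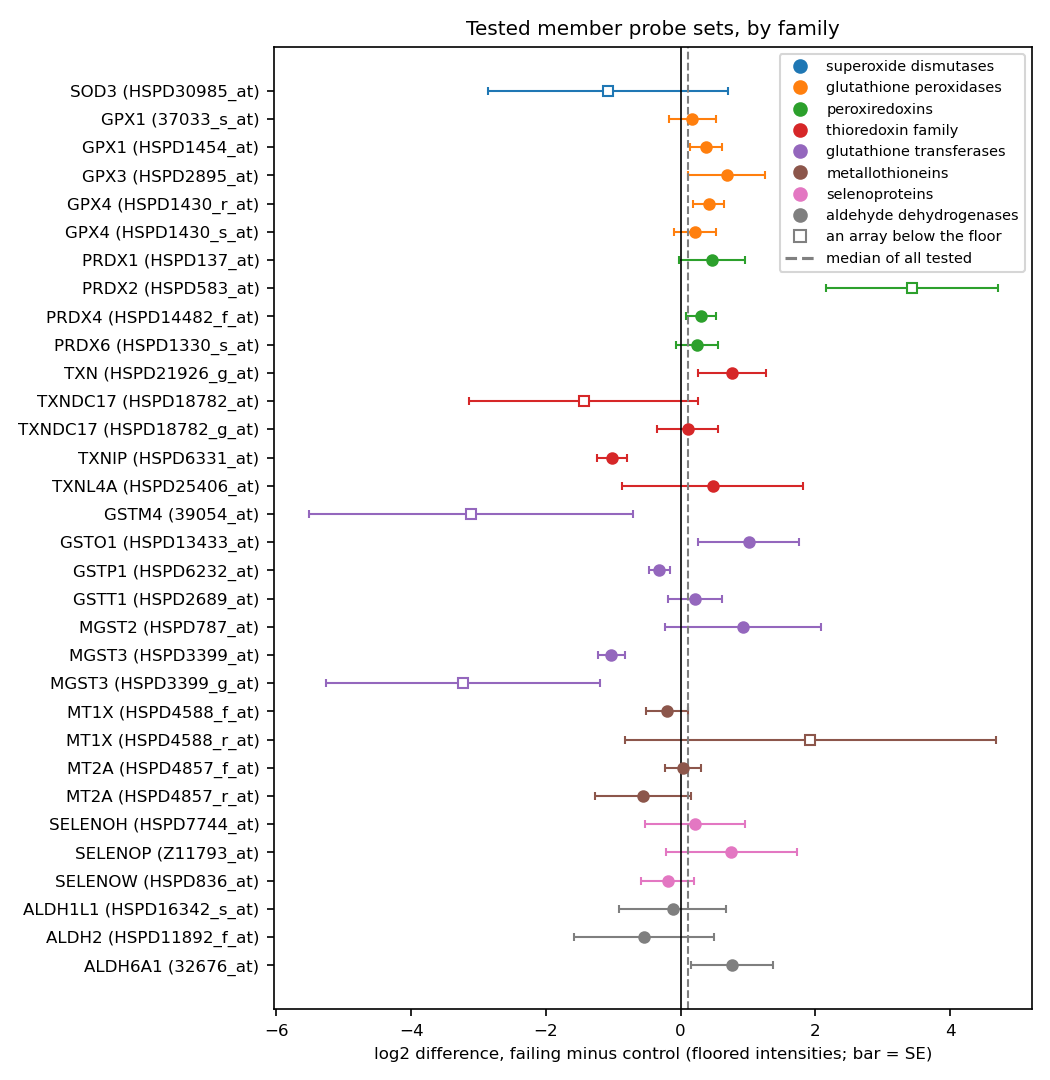
Log2 difference, failing minus control, of the 32 tested member probe sets in rows grouped by family, with bars for the standard error. Open squares mark probe sets with an array below the floor of 20, and the dashed line is the median of all tested probe sets at 0.11. TXNIP and MGST3 (HSPD3399_at) stand near −1 with short bars.

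Failing 2a stood apart from the other arrays for these genes, as it did for the array as a whole. On it 24 of the 32 tested members (75%) took the highest or the lowest value of the 5 arrays, against 68.4% of all tested probe sets. For failing 1a the number was 6 and for failing 1b it was 9. The median absolute log2 difference over members was 0.20 between failing 1a and 1b and 0.31 between the controls. It was 0.80 between failing 1a and 2a and 0.85 between failing 1b and 2a. The GAPDH probe sets at the 3′ and 5′ ends of the transcript, whose ratio is read for RNA integrity, gave 1.42, 1.44 and 1.32 on failing 1a, 1b and 2a, against 2.15 and 2.32 on control 1a and 2a (exact permutation p = 0.2, two-sided, the smallest that 3 against 2 arrays can give). The same ratio for actin overlapped between the groups (exact permutation p = 0.6). The part of RNA integrity in the differences reported here was not tested.

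**Figure D2:**
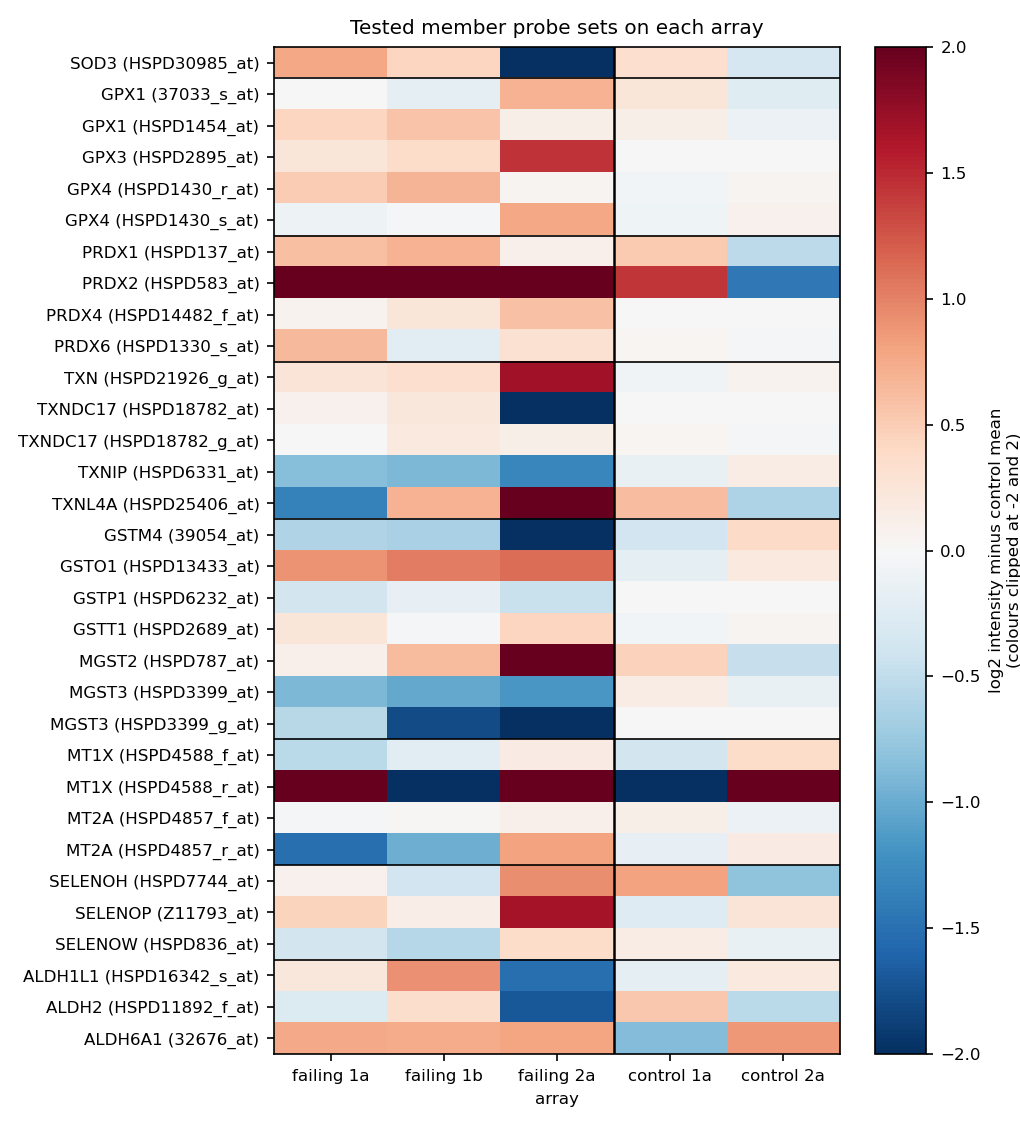
Log2 intensity of each tested member (rows, grouped by family) on each array (columns), relative to the mean of the control arrays, with colours clipped at −2 and 2. Failing 2a holds the strongest colours, with 24 of its 32 values the highest or lowest of the 5 arrays, while TXNIP and MGST3 are blue on all 3 failing arrays.

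Glutathione transferases had the most tested probe sets of any family, 7 of 10, and the largest number below 0 in log2 difference, 4. Their share below 0 was not the largest, as 2 of 3 aldehyde dehydrogenase probe sets were below. With 1 probe set per gene, 3 transferases lay above 0 and 3 below. Of the 7 tested transferase probe sets, 4 were lower on every failing array while 1 was higher. Over all tested probe sets 11.5% were lower and 18.3% higher. Of the 4, 2 were of the same gene, MGST3, and 2 had failing 2a below the floor. MGST3 encodes a membrane-bound enzyme with glutathione transferase and peroxidase activity that acts on lipid hydroperoxides. Its probe set HSPD3399_at had intensities of 4467, 4112 and 3706 on failing 1a, 1b and 2a, against 9217 and 7518 on control 1a and 2a. The highest failing value lay far under the lower control value. The means were 4095 ± 381 in failing and 8367 ± 1201 in control myocardium (SD, n = 3 and 2), a log2 difference of −1.03 ± 0.20 (SE, limma adjusted p = 0.305), which ranked 23 by p among the 2301 probe sets. The second MGST3 probe set, HSPD3399_g_at, read 2234, 953 and −1391 on the failing arrays, against 3271 and 3292 in control. It was also lower throughout, and as failing 2a was below the floor no fold is given for it.

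GSTP1 encodes the pi-class transferase, a cytosolic enzyme. Its bright probe set HSPD6232_at read 26698, 30811 and 25311 in failing myocardium, against 34324 and 34349 in control. Both controls lay above all failing arrays, and the log2 difference was −0.32 ± 0.16 (SE, limma adjusted p = 0.59), 0.801-fold. The other GSTP1 probe sets were dim, with one below 0 on all arrays, and could not be tested. GSTM4, a mu-class transferase in the human annotation, read 3654, 3529 and −2768 in failing against 4233 and 7206 in control myocardium. Failing 1a and 1b were somewhat under the lower control, and the fitted difference of −3.12 ± 2.41 (SE, limma adjusted p = 0.75) was set largely by the floored value of failing 2a. In the dog annotation of RefSeq, GSTM1, GSTM4 and GSTT1 have no gene of the same symbol, so which dog transcript these probe sets read is not known.

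GSTO1, the omega-class transferase with thioltransferase activity, was the transferase that was higher on every failing array. It read 337, 368 and 392 on the failing arrays, against 159 and 207 on the controls. All failing values were higher, and the log2 difference was 1.01 ± 0.75 (SE, limma adjusted p = 0.74). GSTT1 and MGST2 overlapped between the groups, with log2 differences of 0.22 and 0.92. The control values of MGST2 alone would not have met the brightness limit. GSTM1 was below the floor on every array.

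**Figure D3:**
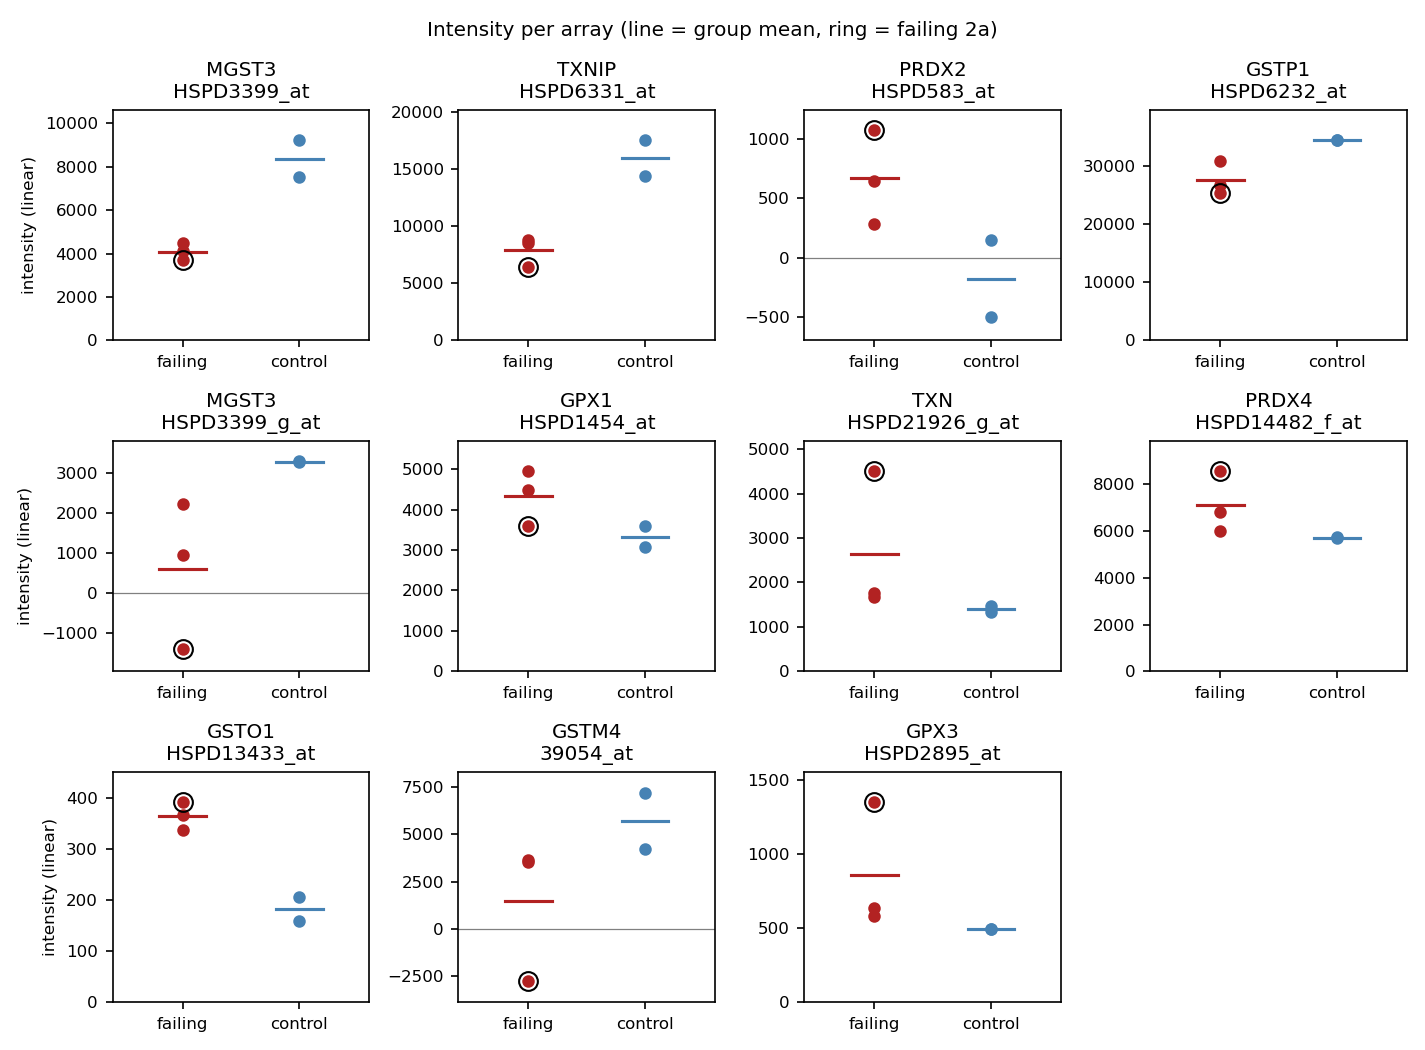
Linear intensity on each array for the 11 tested member probe sets that had an unadjusted p under 0.05 or no overlap between groups, failing on the left and control on the right of each panel, with lines at the group means and a ring around failing 2a. MGST3 (HSPD3399_at) shows failing values from 3706 to 4467 under control values of 7518 and 9217, and TXNIP failing values from 6452 to 8805 under 14419 and 17532.

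In the thioredoxin and glutaredoxin family, 5 of 10 probe sets were tested. TXNIP encodes a protein that binds thioredoxin and blocks its activity, and its transcript is known to be induced by glucose. The probe set HSPD6331_at read 8805, 8535 and 6452 in failing myocardium, against 14419 and 17532 in control. All failing values lay well under both controls, with means of 7931 ± 1288 and 15975 ± 2201 (SD, n = 3 and 2). The log2 difference was −1.02 ± 0.22 (SE, limma adjusted p = 0.305), which ranked 28 of 2301. The other TXNIP probe set, HSPD31758_r_at, was below 0 on every array and could neither repeat nor oppose it.

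Thioredoxin itself, TXN, the small disulfide-reducing protein that TXNIP binds, pointed up. Its probe set HSPD21926_g_at read 1670, 1772 and 4499 on the failing arrays, against 1337 and 1469 on the controls. The failing values were all higher, with failing 2a far above the rest, and the log2 difference was 0.76 ± 0.51 (SE, limma adjusted p = 0.702). The dimmer TXN probe set HSPD21926_at read 244, 274 and −59 in failing against −224 and 721 in control myocardium, so its groups overlapped. TXNDC17, a thioredoxin-like protein of the cytosol, was flat at one probe set, with 615, 702 and 661 in failing and 631 and 594 in control myocardium. Its other probe set had failing 2a below 0 and values between 494 and 586 on the remaining arrays. TXNL4A, which has a thioredoxin fold but is a component of the spliceosome, overlapped between the groups. The glutaredoxin gene GLRX read no more than 80.1 on any array at either probe set.

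Glutathione peroxidases reduce hydrogen peroxide and lipid peroxides at the cost of glutathione, and GPX1, GPX3 and GPX4 are selenoproteins. All 5 of their probe sets were tested and all 5 had a log2 difference above 0, with a median of 0.38. The direction was not uniform under every treatment of the data: 4 of 5 lay above 0 with arrays scaled to a common 75th percentile, 4 of 5 without control 2a and 3 of 5 without failing 2a. GPX1, the cytosolic form, read 4471, 4944 and 3598 in failing and 3586 and 3063 in control myocardium at HSPD1454_at. The lowest failing value, 2a, was just above the higher control, and the log2 difference was 0.38 ± 0.24 (SE, limma adjusted p = 0.683). At its other probe set the values were 3617, 3137 and 5841 in failing against 4258 and 3030 in control myocardium, and the groups overlapped.

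GPX3, the secreted plasma form, read 584, 637 and 1348 on the failing arrays, against 492 and 497 on the controls. All failing values were higher, with a wide gap only for failing 2a (log2 difference 0.68 ± 0.57 SE, limma adjusted p = 0.773). GPX4, the phospholipid hydroperoxide peroxidase that guards membranes, had 2 probe sets that overlapped in different ways. At HSPD1430_r_at failing 1a and 1b were high, with 12659 and 14178, and failing 2a had 9231, against 8527 and 9244 in control. At HSPD1430_s_at failing 1a and 1b, with 6308 and 6651, were near the control values of 6425 and 7183, and failing 2a was high with 11604. The 2 probe sets of this gene thus differed in which failing array was high.

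Peroxiredoxins are thiol peroxidases that thioredoxin regenerates. Of 6 probe sets 4 were tested, and all 4 had a log2 difference above 0 (median 0.38). That count held under 75th percentile scaling and quantile normalization, and was 3 of 4 without control 2a. PRDX2, which is abundant in red blood cells, read 284, 646 and 1078 in failing myocardium, against 145 and −498 in control, at HSPD583_at. It was the member past an unadjusted p of 0.05 in the upward direction (limma adjusted p = 0.496), but its control values alone would not have met the brightness limit, so it was tested only because it was high in failing myocardium. Its fitted log2 difference of 3.43 depends on the floor applied to control 2a. With a floor of 5, or with failing 1a and 1b averaged, 0 members were past that unadjusted p in the upward direction. The number was also 0 without failing 1b, and with arrays paired by the number in their titles. Its second probe set was too dim to test and read 99.7, 43.7 and 221 on the failing arrays, against −262 and −177 on the controls, again with no overlap. PRDX4, the form of the endoplasmic reticulum, read 5989, 6777 and 8533 in failing and 5678 and 5740 in control myocardium. Every failing value was higher, by a small margin for failing 1a (log2 difference 0.30 ± 0.22 SE, limma adjusted p = 0.739).

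The remaining peroxiredoxins overlapped between the groups. PRDX1, a cytosolic form, read 1193, 1274 and 839 in failing against 1133 and 544 in control myocardium. PRDX6, which reduces phospholipid peroxides with glutathione, read 4362, 2394 and 3419 in failing against 2862 and 2699 in control myocardium. PRDX3, the mitochondrial form, stayed between −207 and 79.3 and was not tested.

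Superoxide dismutases were read poorly. SOD3, the extracellular enzyme, was the gene of this family that was tested, with 747, 589 and −664 on the failing arrays and 551 and 347 on the controls. Failing 1a and 1b were above both controls and failing 2a was below 0, so the groups overlapped, and the log2 difference of −1.08 ± 1.78 (SE, limma adjusted p = 0.881) became 0.60 without failing 2a. SOD2, the manganese enzyme of mitochondria, read 122, 61.4 and 50.4 in failing against 244 and 190.4 in control myocardium. It was lower on every failing array and was the untested member with all 5 values above the floor. Its control values alone would have met the brightness limit, and it was left untested because it was low in failing myocardium. The cytosolic enzyme SOD1 read below 20 on all arrays at HSPD3428_at, and at HSPD3428_g_at it read 303, −147 and −601 in failing against 327 and 135 in control myocardium.

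Metallothionein probe sets numbered 7, for MT1E, MT1X and MT2A, and 4 were tested, 2 above 0 and 2 below (1 above and 3 below under either other scaling). None of the tested ones separated the groups. The dimmest MT1X probe set, which was not tested, was below 0 on all arrays, lower on every failing one. The brightest, HSPD4588_f_at of MT1X, read 12125, 15043 and 19616 in failing against 13626 and 22696 in control myocardium. The spread within each group was as wide as that between them (log2 difference −0.20 ± 0.31 SE, limma adjusted p = 0.871). HSPD4588_r_at of the same gene, 1 of the 2 above 0, ranged from −7644 on failing 1b to 3600 on failing 2a. On the controls it ranged from −6581 to 789, values that alone would not have met the brightness limit. MT2A was nearly level at HSPD4857_f_at, with 1670, 1718 and 1811 in failing and 1827 and 1569 in control myocardium. At HSPD4857_r_at it read 1002, 1458 and 5005 in failing against 2560 and 3206 in control myocardium, with failing 1a and 1b below and failing 2a above both controls. Metallothionein genes are near-identical in sequence, and a probe set may read more than 1 of them, which leaves the assignment to a single gene uncertain.

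Other selenoproteins were mostly dim, with 3 of 8 probe sets tested. SELENOP, which carries selenium in plasma, read 219, 176 and 506 in failing against 135 and 191 in control myocardium at Z11793_at, with overlap. At its dimmer probe set it read 43.0, 118 and 244 in failing against 9.33 and −7.94 in control myocardium, without overlap. SELENOW, a small selenoprotein of muscle, read 1364, 1185 and 2285 in failing against 1953 and 1596 in control myocardium. SELENOH, of the nucleolus, read 578, 417 and 1044 in failing against 952 and 313 in control myocardium, and neither of these separated the groups. The SELENOF probe sets were too dim to test, and SELENOO was below the floor on every array.

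Among aldehyde dehydrogenases and aldo-keto reductases, 3 of 8 probe sets were tested and all 3 overlapped between the groups. ALDH2, the mitochondrial enzyme that clears acetaldehyde and lipid aldehydes, read 247, 380.4 and 92.7 in failing against 436 and 205 in control myocardium (log2 difference −0.54 ± 1.04 SE, limma adjusted p = 0.894). ALDH6A1, which degrades valine and pyrimidine intermediates in mitochondria, read 1035, 1015 and 1058 in failing against 334 and 1113 in control myocardium. Its failing arrays were close together and the controls far apart. ALDH1L1, a folate enzyme, read 964, 1543 and 289.5 in failing against 719.8 and 936 in control myocardium at its tested probe set. ALDH7A1, which oxidises lysine-derived aldehydes, was lower on every failing array, with 108, 64.8 and −21.8 in failing against 417 and 207 in control myocardium. Its control values alone would have met the brightness limit, and it was left untested because it was low in failing myocardium. ALDH5A1 was below the floor on all arrays, AKR1C3 read no more than 54.0, and the quinone reductase NQO2 exceeded the floor only on failing 2a, with 621.

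Of the 38 member genes, 17 had several probe sets, and 6 had more than 1 that could be tested. In 3 of those 6 the probe sets pointed the same way. These were GPX1, GPX4 and MGST3. They pointed opposite ways for MT1X, MT2A and TXNDC17. In all, 6 of the 32 tested members had at least 1 array below the floor. For PRDX2, SOD3, GSTM4, the second MGST3 probe set and one probe set each of MT1X and TXNDC17 the size of the fitted difference is therefore set by the floor.

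MGST3 (HSPD3399_at) and TXNIP (HSPD6331_at) kept their direction under all 15 alternative treatments of the data, with log2 differences from −1.23 to −0.88 and from −1.22 to −0.87. Their adjusted p ranged from 0.108 to 0.73 and from 0.107 to 0.764. Without failing 2a the differences were −0.96 and −0.87, so they did not rest on that array.

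**Figure D4:**
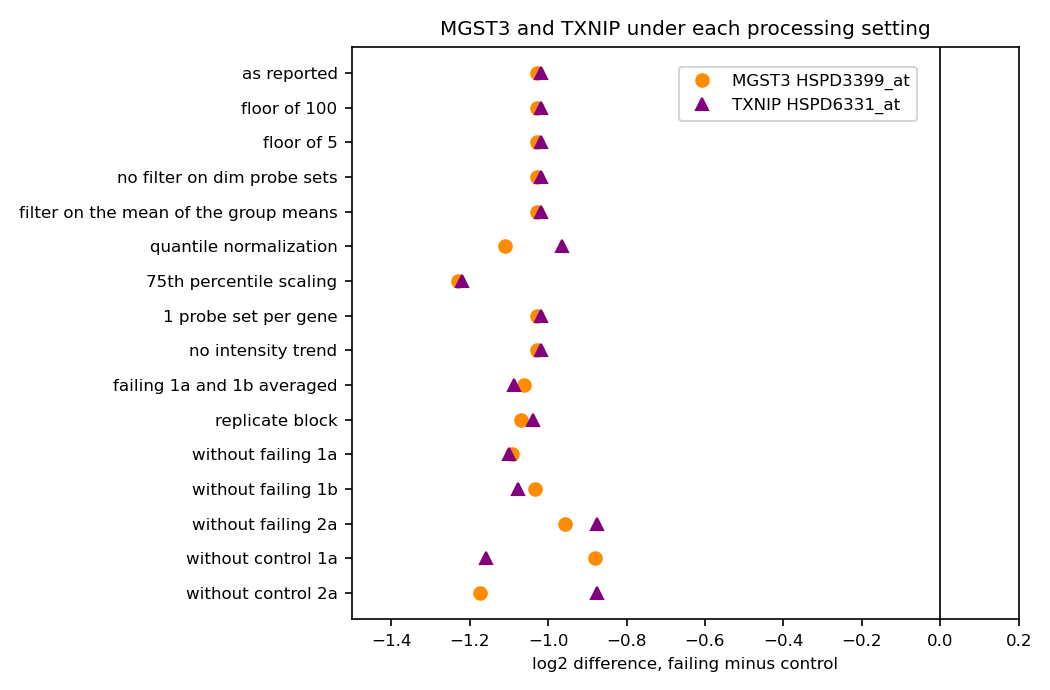
Log2 difference, failing minus control, of MGST3 (circles) and TXNIP (triangles) as reported and under 15 other treatments of the data, 1 per row. All points lie between −1.23 and −0.87.

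Genes that supply or surround these enzymes were read from lists of the pathway. The list of NRF2 regulation and glutathione synthesis was read through CUL3, ESD, GLO1, GLUL, HAGH, KEAP1, NFE2L2 and SQSTM1, none of which makes glutathione itself. Its median log2 difference was 0.11, as for all tested probe sets. Of its 9 tested probe sets, 1 was higher and 1 lower on every failing array, against 18.3% and 11.5% of all tested probe sets. The higher one was NFE2L2, the gene of the transcription factor NRF2 that drives many antioxidant genes, with 391, 537 and 348 in failing against 241 and 346 in control myocardium (limma adjusted p = 0.845). Its lowest failing value barely exceeded the higher control. The lower one was SQSTM1, an adaptor of selective autophagy and of the NRF2 pathway, with 3739, 2877 and −5917 in failing against 5649 and 5724 in control myocardium. Of NADPH-supplying enzymes, which keep glutathione and thioredoxin reduced, 3 probe sets were tested and all overlapped. In the iron and heme list 1 of 6 tested probe sets was higher on every failing array, that of the ferritin light chain gene FTL, with 4337, 4234 and 3909 in failing against 3294 and 3645 in control myocardium. A second FTL probe set overlapped, with 3017, 2551 and 2739 in failing against 4320 and 2658 in control myocardium. The 1 tested probe set of metal ion homeostasis, SLC39A7, overlapped too.

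In the list of oxidant-producing enzymes 1 of 5 tested probe sets was higher on every failing array. It was POR, the reductase that passes electrons to cytochromes P450, with 2992, 3295 and 4773 in failing against 2422 and 1795 in control myocardium (log2 difference 0.79 ± 0.31 SE, limma adjusted p = 0.52). In the list of oxidative damage repair and mitochondrial quality control 2 of 6 tested probe sets were higher and 0 lower on every failing array, against 18.3% and 11.5% of all tested probe sets. Among all 14 probe sets of the list, 2 were higher and 2 lower. HSPD1, the mitochondrial chaperonin, read 2387, 3079 and 2965 in failing against 1914 and 1004 in control myocardium at HSPD22463_g_at (log2 difference 1.01 ± 0.37 SE, limma adjusted p = 0.495). Its other probe set, HSPD22463_at, went the opposite way without overlap, with −28.5, −254 and −104 in failing against 1100.3 and 1264 in control myocardium. It was not tested, although its control values alone would have met the brightness limit. The direction of HSPD1 therefore differed between its probe sets. CLPP, a mitochondrial protease subunit, read 3068, 3919 and 4069 in failing against 2805 and 2230.3 in control myocardium, and its second probe set was below 0 on all arrays. No gene of these lists passed the adjusted threshold.

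Bulk tissue cannot tell fewer cells of a type from less RNA per cell, and markers of other cell types were therefore read beside these results. Heart muscle was present on all arrays, with MYH6, the alpha myosin heavy chain, between 29129 and 38368 in failing and between 49704 and 50189 in control myocardium. Counts of tested marker probe sets stand against 18.3% higher and 11.5% lower on every failing array over all tested probe sets. Of 24 tested cardiomyocyte probe sets 3 were higher and 6 lower on every failing array, MYH6 among the lower. In log2 difference 12 lay above 0 and 12 below, with a median of −0.008. The smallest p was that of ACTN2, 1 of the 3 higher, with 10208, 11359 and 7175 in failing against 3080 and 2321 in control myocardium (limma adjusted p = 0.174). A CKM probe set among the 6 lower ones met the brightness limit only through its control values. It read −893, 694 and −2314 in failing against 3775 and 3508 in control myocardium. The other CKM probe set, HSPD9_at, overlapped between the groups, with a log2 difference of 0.16. The summed level of the cardiomyocyte list ranged from 246467 to 295720.0 in failing and from 242792 to 279036 in control myocardium. Red cell markers, given because PRDX2 is abundant in red cells, had 4 tested probe sets, 1 of them (HBB) higher on every failing array and the other 3 below 0 in log2 difference, among them a second HBB probe set at −0.69 with overlap. Their median was −0.37, with a summed level from 5496 to 7464 in failing and from 5532 to 7136 in control myocardium. Of 20 leukocyte and macrophage probe sets 3 were tested and 0 separated the groups, and AIF1, C1QB, CD163, FCER1G and ITGAM were below the floor on all arrays. Their summed level ranged from 3455 to 9091 in failing, highest on 2a, and from 3402 to 4920 in control myocardium. Endothelial markers had 4 of 9 tested probe sets higher and 1 lower. Of the 4, CDH5, with 34.5 and 138 on the controls, met the brightness limit only through its failing values. The median log2 difference of the list was 0.86, against 0.11 for all tested probe sets, and 8 of the 9 lay above 0. Among the 8, TEK (24.4 and 479 on the controls) and the tested EMCN probe set (110 and 125) had control values that alone would not have met the brightness limit. For them, as for CDH5, the direction above 0 followed from the filter. Endothelial sums ran from 9617 to 17665 in failing and from 10948 to 15420 in control myocardium. The lower probe set, of ENG, made up much of the control sums, with 5158 and 8319 on control 1a and 2a. Fibroblast markers had 2 of 9 higher and 0 lower, with sums from 6480 to 9449 in failing and from 6752 to 7877 in control myocardium. Of 3 tested smooth muscle probe sets 1 was higher and 1 lower, and of 4 tested adipocyte probe sets 0 were higher and 2 lower. The part of cell composition in the differences of MGST3 and TXNIP was not tested.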

How the data were processed

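Linear intensities as deposited were used, 1 for each probe set on each array. How the authors made these intensities is not given in the sources used here. The values share a scale, since every array has a mean of 800 after removal of the lowest and highest 2%, and 34.7% to 39.9% of probe sets per array are below 0. Of 4653 probe sets, 52 array controls were left out, and 3724 of the others had 1 symbol, 72 several and 805 none. Human-designed probes on dog RNA may lose signal or read related genes. Of the 38 member genes, 34 have a dog gene of the same symbol in RefSeq, and MT1X is there as a synonym. In the manufacturer's naming, the suffixes f, g, i, r and s mark probe sets that may share sequence with related transcripts or were designed under relaxed rules.

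Intensities under 20 were set to 20 before taking log2. All probe sets with a mean at or above the median (7.13) were fitted together in limma 3.58.1 (R 4.3.3, eBayes with an intensity trend), two-sided, with Benjamini-Hochberg adjustment over 2301 probe sets at 0.05. The number of arrays limits the precision. No fold is given where an array lies below the floor. Array ratios were compared by exact permutation tests. The fit was tested on simulated data. Members and lists were chosen with earlier results of these data known. Members with an unadjusted p under 0.05 or no overlap are described with every value, as are fixed genes of each family, and lists by counts with up to 4 genes of smallest p. Alternatives covered the floor, filter, scaling, variance model and arrays left out, averaged or blocked. The table held 0 columns of other samples. Coordinates are left out for want of a stated genome build.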

Additional observations from a re-analysis of the deposited data

How the results depend on the processing

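Of 19 named member probe sets, 14 kept their direction under the 15 alternatives (14 for the second MGST3 probe set, which 1 probe set per gene leaves out), and 0 passed the threshold under any. The member count past the threshold was 0 in all of them. The number of called probe sets on the whole array, 2, was 4 with a floor of 100, 6 without the filter, 6 without the intensity trend, 1 with 1 probe set per gene, 0 with failing 1a and 1b averaged and 0 with a replicate block. The block pairs arrays by the number in their titles, which the labels do not explain. The difference of control 1a from 2a and that of failing 1a and 1b from 2a correlated at 0.04 across tested probe sets, and the block changed no call of a member. Leaving out each array gave 0 to 21 called probe sets, the 21 on dropping failing 2a, and 3 on dropping control 2a, with 0 for each other array. Members higher on every failing array were 6 of 32 (18.3% of all tested probe sets). With failing 1a and 1b averaged they were 10 of 32 (24.25% of all). When an array was left out they were 9 to 12, with 12 of 34 without failing 2a (28.25% of all) and 12 of 33 without control 1a (30.03% of all). Members lower, 5 of 32 (11.5% of all tested probe sets), were 8 of 59 without the filter (13.4% of all). They were 5 to 8 when an array was left out. The number was 8 of 34 without failing 2a (21.0% of all) and 8 of 33 without control 1a (19.4% of all). Fewer arrays make separation easier by construction, and the share over all tested probe sets grew too. The members' median of 0.21 was 0.033 without the filter, 0.053 after quantile normalization, 0.0082 with 75th percentile scaling and 0.062 (without control 2a) to 0.30 (without failing 1b) when an array was left out. The median of all tested probe sets moved to −0.05 and −0.10 under those 2 scalings. Among the named probe sets, directions reversed only when an array was left out, with ranges from −1.08 to 0.034 for ALDH2 (positive without failing 2a, and 0.0027 without control 1a), −2.01 to 0.60 for SOD3 (positive without failing 2a), −0.57 to 0.17 for MT1X (HSPD4588_f_at, positive without control 2a), −0.063 to 0.995 for PRDX1 (negative without control 2a) and −0.47 to 5.6e-05 for SELENOW (without failing 1b). Beyond the effect of fewer arrays the cause was not tested. Dim readings, most with arrays below the floor, left 27 members untested.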
